A study of Mus musculus with 6 samples.

Results

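Fatty acid synthesis, elongation and desaturation were followed through 10 genes: Acly, Acaca, Fasn, Elovl6, Elovl1, Elovl5, Scd1, Scd2, Fads1 and Fads2. They were taken by symbol from a deposited table of 24848 gene symbols, and all 10 symbols were found. The set was chosen by results already seen for these libraries, the CPM and the fold changes between the groups. The study sequenced poly(A) RNA of RAW 264.7 cells, a macrophage-like tumour line of a BALB/c mouse, to set RNA editing measured by another method beside RNA sequencing. The knockout group (KO) held 3 libraries of RAW 264.7 cells labelled APOBEC1 KO, and the wild-type group (WT) held 3 libraries of RAW 264.7 cells labelled WT, each library from its own plate. Both groups grew in the same high-glucose medium with fetal bovine serum and carried no other treatment in the labels. How the gene was disrupted, and whether the knockout line is 1 clone or several, is not in the labels, and the genotype cannot be told apart from any other difference between the lines.

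Cells make fatty acids from citrate that leaves the mitochondrion. ATP citrate lyase (Acly) turns the citrate into cytosolic acetyl-CoA, acetyl-CoA carboxylase (Acaca) makes malonyl-CoA in the committed step, and fatty acid synthase (Fasn) assembles palmitate. Elongases (Elovl genes) lengthen the chain and desaturases (Scd and Fads genes) place double bonds. SREBP transcription factors, and LXR receptors paired with RXR, drive many of these genes, and in macrophages the pathway supplies membrane phospholipids and sets their saturation.

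The KO libraries held 59768682 to 70411383 reads assigned to genes and the WT libraries 50493447 to 67392191. Levels are CPM, the reads of a gene scaled to the total of its library, and errors are SD over 3 libraries. Log2 fold changes are KO over WT on log2(CPM + 0.5), given ± SE from a limma fit over 10614 genes, and a gene was called where its p, adjusted by the Benjamini-Hochberg method, was under 0.05. Apobec1 itself stood at 347 ± 12.5 CPM in KO and 399.8 ± 29.3 CPM in WT (log2 fold change -0.20 ± 0.07, limma adjusted p = 0.0663; exact two-sided permutation p = 0.1, the smallest that 3 against 3 allow). Where the gene was edited is not given in the labels, and a transcript level need not show it, so the level of Apobec1 is no check of the genotype. Macrophage markers summed to 4283 to 4785 CPM in KO libraries and 4043 to 4263 CPM in WT libraries. All 12 met the limit for testing, but Mrc1 did so only through the WT libraries, with 0.0353 ± 0.0344 CPM in KO. The summed markers of adipocytes, hepatocytes and fibroblasts, 5 genes each, reached at most 0.139 CPM in any library. Of each of these lists 3 genes are listed at 0 throughout, as are genes that most cells use (G6pdx, Stk11 and Decr1), so a 0 may mean that a symbol was not counted. Rn45s, the ribosomal RNA precursor, took 0.542% to 1.40% of KO reads and 0.381% to 2.75% of WT reads. Rescaling without Rn45s left the same 6 of the 10 genes called.

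Scd1 stood far lower in KO, and Scd2, Acly, Acaca, Elovl6 and Fasn stood moderately lower. Fads1 stood higher, while Fads2, Elovl1 and Elovl5 had overlapping groups. Of the 10 genes, 5 were called lower and 1 higher, beside 16.9% called lower, 13.5% called higher and 30.4% called in either direction among all tested genes. Groups did not overlap for 7 of the 10, beside 46.4% of all tested genes. The median log2 fold change of the 10 was -0.25, beside -0.02 over all tested genes. The genes were chosen with results of this contrast known, so nothing is read from these shares and the values of the 10 are given as descriptions without p. The same holds for their calls, kept or lost under other settings, which are no support for a difference. All 10 passed the filter on low values in both groups. In these bulk libraries, fewer cells with a transcript and less of it per cell cannot be told apart.

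**Figure D1:**
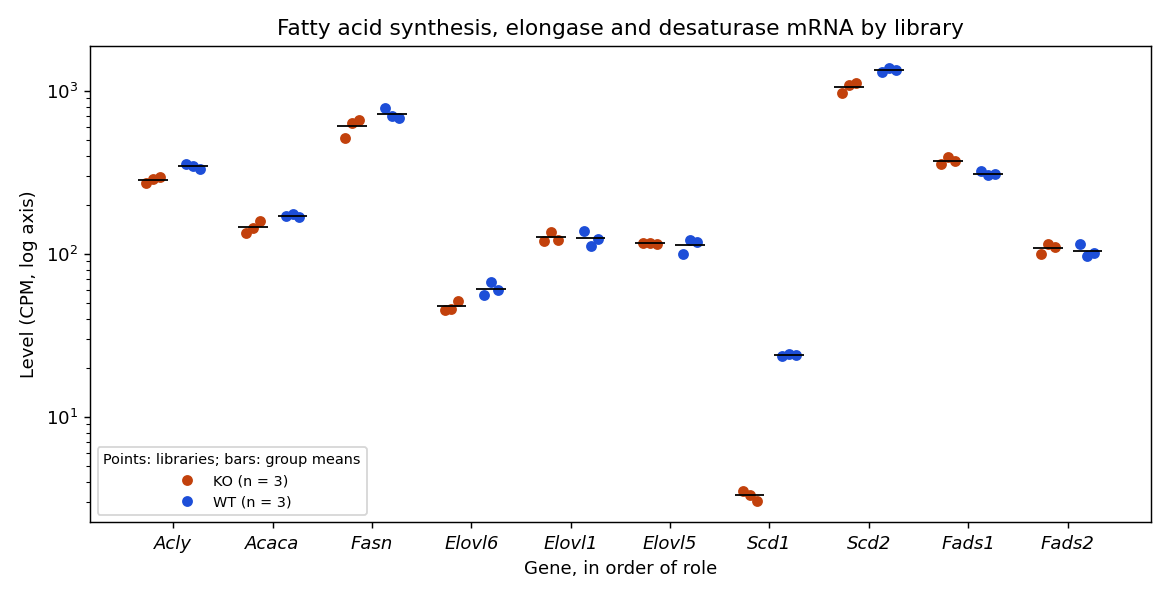
CPM (log axis) of the 10 genes in each of 3 KO libraries (orange) and 3 WT libraries (blue), with black bars at the group means. Scd1 lies at 3.06 to 3.51 CPM in KO and 23.5 to 24.3 CPM in WT, while Scd2 lies near the top of the axis in both groups.

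The first steps of synthesis were lower in KO by similar proportions. Acly (chromosome 11) had 272, 286 and 295 CPM in KO replicates 1, 2 and 3, against 357, 344 and 331 CPM in the WT replicates. Its KO mean was 17.4% lower (log2 fold change -0.27 ± 0.06). Every KO library lay below every WT library. The call was lost without KO replicate 1 (-0.24).

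Acaca, which encodes the carboxylase of the committed step, had 135, 145 and 160 CPM in KO replicates 1, 2 and 3, against 171, 176 and 168 CPM in the WT replicates. The groups did not overlap, and the KO mean was 14.6% lower (-0.23 ± 0.07). This was the narrowest of the 6 calls, and it was lost under 11 of 18 alternative settings. It was lost without KO replicate 1 (-0.17), KO replicate 2 (-0.22), WT replicate 1 (-0.23), WT replicate 2 (-0.21) or WT replicate 3 (-0.25). Transcripts of the gene share 21.0% of their 125-base windows, the length of a read, with other annotated transcripts, mainly Gm5182, so part of its reads could be placed elsewhere.

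Fasn, the synthase, had 515, 637 and 665 CPM in KO replicates 1, 2 and 3, against 784, 699.5 and 683 CPM in the WT replicates. The groups stayed apart by a narrow margin, between the highest KO library at 665 CPM and the lowest WT library at 683 CPM. The mean was 606 ± 79.5 CPM in KO and 722 ± 54.3 CPM in WT, 16.1% lower in KO. Its log2 fold change of -0.26 ± 0.11 was like that of Acly and Acaca but had the widest spread of the 10 genes within KO, and it was not called. Within a library, Fasn per length stayed at 0.835 to 0.993 of Acly in KO and 0.896 to 0.968 in WT, so the ratio of synthase to lyase overlapped between the groups.

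Elovl6, the elongase that takes palmitate to stearate, stood with the synthesis enzymes. Its levels were 45.4, 45.9 and 51.6 CPM in KO replicates 1, 2 and 3, against 56.1, 67.3 and 60.0 CPM in the WT replicates. The groups did not overlap, and the KO mean was 22.1% lower (-0.35 ± 0.09). The call was lost without KO replicate 1 or 2 and without WT replicate 3 (log2 fold changes -0.32, -0.33 and -0.37).

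Proximal promoters are shown for 3 enzymes that stood lower and for 1 elongase that did not. RefSeq promoter sequences were matched for 7 of the 10 genes, all but Scd1, Scd2 and Fads1. The 250 bases before the start site are given 5′ to 3′ on the gene's strand (build GRCm38.p6, the assembly of mm10) for Fasn (chr11:120824548-120824797, minus strand), Acly (chr11:100528001-100528250, minus strand), Elovl6 (chr3:129532136-129532385, plus strand) and Elovl5 (chr9:77917115-77917364, plus strand). Capitals mark matches, on either strand, to the NF-Y box CCAAT, the Sp1 box GGGCGG and the USF E-box CACGTG.
Fasn: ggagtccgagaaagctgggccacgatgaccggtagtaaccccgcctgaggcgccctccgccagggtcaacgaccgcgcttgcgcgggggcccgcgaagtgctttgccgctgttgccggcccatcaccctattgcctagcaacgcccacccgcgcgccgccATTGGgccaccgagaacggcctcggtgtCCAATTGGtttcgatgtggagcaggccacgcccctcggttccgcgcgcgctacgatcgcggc
Acly: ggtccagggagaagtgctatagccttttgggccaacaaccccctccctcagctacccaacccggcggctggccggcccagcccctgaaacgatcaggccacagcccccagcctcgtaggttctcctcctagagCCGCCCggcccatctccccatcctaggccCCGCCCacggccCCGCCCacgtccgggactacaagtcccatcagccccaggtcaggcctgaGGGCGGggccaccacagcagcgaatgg
Elovl6: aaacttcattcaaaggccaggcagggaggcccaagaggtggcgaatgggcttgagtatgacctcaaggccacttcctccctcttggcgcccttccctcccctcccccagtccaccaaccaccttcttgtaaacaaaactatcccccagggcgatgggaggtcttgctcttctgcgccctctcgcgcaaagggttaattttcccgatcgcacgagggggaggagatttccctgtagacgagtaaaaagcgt
Elovl5: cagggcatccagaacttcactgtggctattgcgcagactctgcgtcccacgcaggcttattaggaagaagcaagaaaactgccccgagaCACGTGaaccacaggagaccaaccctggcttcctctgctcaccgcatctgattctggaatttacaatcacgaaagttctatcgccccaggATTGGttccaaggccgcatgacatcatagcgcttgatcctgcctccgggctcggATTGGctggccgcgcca

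The Fasn window held 3 NF-Y boxes between 90 and 55 bases before the start, of which the last 2 overlap on opposite strands. Acly held 4 Sp1 boxes, Elovl6 none of the motifs searched, and Elovl5, whose groups overlapped, held 2 NF-Y boxes and 1 E-box. Over all 32851 promoter windows of this length, 33.8% held an NF-Y box, 32.7% an Sp1 box and 6.02% the E-box. Of the 7 genes with a sequence, 3 held an NF-Y box (Fasn, Elovl5 and Elovl1), 3 an Sp1 box (Acly, Elovl1 and Fads2) and 1 the E-box (Elovl5). NF-Y and Sp1 boxes were in windows of genes that stood lower and of genes that did not, and the E-box only in that of Elovl5. Whether the motifs bear on the levels was not tested. The Acaca window, not printed, held none of them, but it lies inside the gene. It spans chr11:84195188-84195437 on the plus strand, and the annotated gene starts at 84129672. The bases before that annotated start were not searched. The Fads2 window (chr19:10101504-10101753, minus strand) also lies almost wholly inside its gene, whose annotated start is at 10101746. So does 1 of the Elovl1 windows (chr4:118429451-118429700, plus strand), in a gene that starts at 118428093. Sp1 boxes were also in the Elovl1 window that ends at 118428092. The SREBP site TCACNCCAC was found in 1.05% of all windows and in 0 of the 7 genes with a sequence, and the LXR and RXR repeat AGNTCANNNNAGNTCA in 0.103% of all windows and 0 of the 7. That says only that these letters are not in these windows.

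The other elongases showed little difference. Elovl1, which lengthens saturated and monounsaturated very long chains, had 121, 137 and 121 CPM in KO replicates 1, 2 and 3, against 138, 112 and 123 CPM in the WT replicates. The log2 fold change was 0.02 ± 0.09 and turned to -0.036 without KO replicate 2. It also turned, to -0.050, without WT replicate 2. The exons of Elovl1 overlap the antisense gene Cdc20 over 1.94% of their bases, and Cdc20 stood at 117 ± 5.93 CPM in KO and 100.3 ± 8.93 CPM in WT.

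Elovl5, which lengthens polyunsaturated chains, had 116, 116 and 115 CPM in KO replicates 1, 2 and 3, against 100.3, 121 and 118 CPM in the WT replicates. The WT libraries lay on both sides of the KO libraries, and WT replicate 1 alone was low. Its log2 fold change was 0.04 ± 0.08, and -0.047 without WT replicate 1. Set against Elovl5 in the same library, Elovl6 per length stood at 0.182, 0.185 and 0.210 in KO and at 0.261, 0.260 and 0.237 in WT. Elovl6 was thus lower relative to Elovl5 in each KO library than in any WT library. Relative to Elovl1, Elovl6 per length stood at 0.115, 0.102 and 0.130 in KO and at 0.124, 0.183 and 0.149 in WT, and these groups overlapped.

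The stearoyl-CoA desaturases turn saturated into monounsaturated fatty acids, and both were lower in KO, to very unequal degrees. Scd1 had 3.51, 3.31 and 3.06 CPM in KO replicates 1, 2 and 3 (198 to 247 reads), against 23.5, 24.3 and 23.9 CPM in the WT replicates (1185 to 1639 reads). The libraries of each group lay close together, with an SD of 6.80% of the mean in KO and 1.78% in WT. The KO mean was 86.2% lower (log2 fold change -2.69 ± 0.08), and this was the one call of the 10 that held under all 18 alternatives, at -2.83 to -2.54.

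Scd2, the most abundant of the 10 genes, had 974, 1088 and 1122 CPM in KO replicates 1, 2 and 3, against 1309, 1389 and 1338 CPM in the WT replicates. Its KO mean was 21.1% lower with no overlap (-0.34 ± 0.08). The call was lost without KO replicate 1 (-0.28) and under quantile normalization (-0.22). In absolute terms Scd2 carried nearly all desaturase reads of this kind: Scd1 made up 0.359%, 0.304% and 0.272% of the Scd1 and Scd2 CPM in KO, against 1.76%, 1.72% and 1.75% in WT. Per kilobase of transcript, Scd2 exceeded Scd1 287 ± 39.6-fold in KO and 49.9 ± 0.636-fold in WT.

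Scd1 and Scd2 are neighbours on mouse chromosome 19 together with Scd3 and Scd4. Scd1 shares 1.72% of its 125-base windows with other transcripts, mainly Scd3 and Scd2, and Scd2 shares 0.421%; reads in those windows cannot be assigned to 1 gene by sequence. Scd4 had 0.753, 0.853 and 0.840 CPM in KO replicates 1, 2 and 3, against 1.80, 1.87 and 1.23 CPM in the WT replicates (log2 fold change -0.69 ± 0.14). It was called lower, but it entered the test only through the WT libraries, the KO libraries all being under 1 CPM, so the call is no support for the difference; it was lost under quantile normalization. Scd3 stood at 0.662 ± 0.0447 CPM in KO and 0.935 ± 0.223 CPM in WT, under the limit for testing. Of the 9 tested genes that start within 500 kb of the Scd1 start site, 2 were called lower, Scd2 and Scd4 themselves, and 1 was called higher. Of all tested genes 16.9% were called lower and 13.5% higher. The median log2 fold change of the 9 was 0.01, beside -2.69 for Scd1.

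Fads1 and Fads2 encode the desaturases that make polyunsaturated fatty acids from dietary precursors, and they lie side by side on chromosome 19. Fads1 had 356, 394 and 371 CPM in KO replicates 1, 2 and 3, against 321, 303 and 308 CPM in the WT replicates. All 3 KO libraries lay above all 3 WT libraries, and the KO mean was 20.2% higher (log2 fold change 0.26 ± 0.06). Fads1 was the one member called higher. That call was lost under 5 alternatives, among them leaving out KO replicate 2 (0.22), WT replicate 2 (0.25) or WT replicate 3 (0.26).

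Fads2 had 99.7, 116 and 110 CPM in KO replicates 1, 2 and 3, against 114, 97.1 and 101 CPM in the WT replicates. The groups overlapped, with a log2 fold change of 0.06 ± 0.09, which became -0.0028 under quantile normalization. The ratio of Fads1 to Fads2 per length was 3.25, 3.10 and 3.08 in KO and 2.55, 2.85 and 2.77 in WT. It was thus higher in each KO library than in any WT library. Within 500 kb of the Fads1 start, 2 of 13 tested genes were called higher and 1 lower, beside 13.5% and 16.9% of all tested genes.

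**Figure D2:**
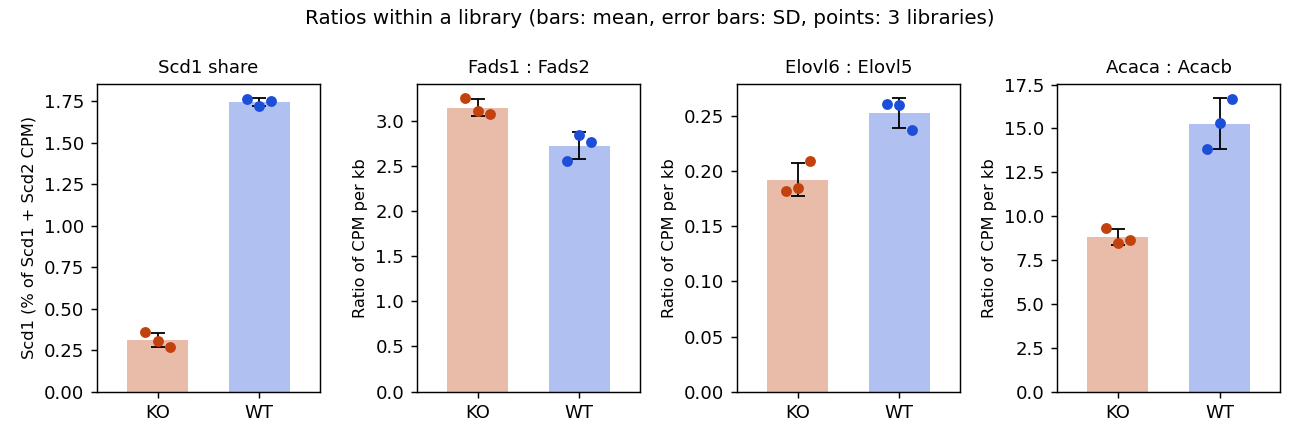
Ratios formed within each library for 3 KO (orange) and 3 WT (blue) libraries; bars are means, error bars SD, and each axis starts at 0. The Scd1 share and the Elovl6 to Elovl5 and Acaca to Acacb ratios are lower in KO, and the Fads1 to Fads2 ratio is higher. Groups do not overlap in the 4 panels, which were picked for that; Elovl6 to Elovl1, Fasn to Acaca and Fasn to Acly, not drawn, overlapped.

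Levels per kilobase of the longest annotated transcript placed the genes in nearly the same order in both groups. In KO the order was Scd2 (195 ± 14.2 CPM per kb), Fads1 (108 ± 5.58), Elovl1 (69.6 ± 5.02), Acly (64.2 ± 2.64), Fasn (60.3 ± 7.91), Elovl5 (41.6 ± 0.254), Fads2 (34.4 ± 2.55), Acaca (15.4 ± 1.303), Elovl6 (8.01 ± 0.580) and Scd1 (0.682 ± 0.0464). In WT it was Scd2 (247 ± 7.47 CPM per kb), Fads1 (89.8 ± 2.55), Acly (77.7 ± 2.90), Fasn (71.9 ± 5.40), Elovl1 (68.6 ± 7.22), Elovl5 (40.7 ± 4.05), Fads2 (33.1 ± 2.84), Acaca (18.03 ± 0.428), Elovl6 (10.3 ± 0.960) and Scd1 (4.94 ± 0.0882). Neighbours overlapped between Acly and Fasn in both groups, and in WT also between Fasn and Elovl1 and between Elovl5 and Fads2. In KO, Elovl1 and Acly met at 66.6 CPM per kb, the lowest Elovl1 and the highest Acly library, so their order is not clear. Scaled by merged exons instead, the middle ranks changed: Fads1 took rank 4 in WT and Elovl1 rank 5 in KO, while Scd2 stayed first and Acaca, Elovl6 and Scd1 stayed last. The CPM of the 10 genes summed to 2637, 2967 and 3012 in KO replicates 1, 2 and 3, against 3374, 3334 and 3255 in the WT replicates.

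KO replicate 1 was the lowest KO library for 8 of the 10 genes, Scd1 and Elovl5 being the exceptions. Without it, 2 of the 10 were called, Scd1 and Fads1, and the median log2 fold change was -0.16. Over all tested genes 1973 were called without it, against 3230 with it. Without KO replicate 2 or WT replicate 3, 3 of the 10 were called, Scd1, Scd2 and Acly in both cases. Over all tested genes 2194 were called without KO replicate 2 and 2477 without WT replicate 3. The 10 genes lie on chromosomes 3, 4, 9, 11 and 19, whose tested genes had median log2 fold changes of -0.06 to 0.0018. None lies on chromosome 2, whose 856 tested genes had a median of 0.34, or on chromosome 6, whose 517 had a median of -0.16. On chromosome 2, 58.3% of tested genes were called higher, beside 13.5% of all tested genes. Apobec1 lies on chromosome 6.

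**Figure D3:**
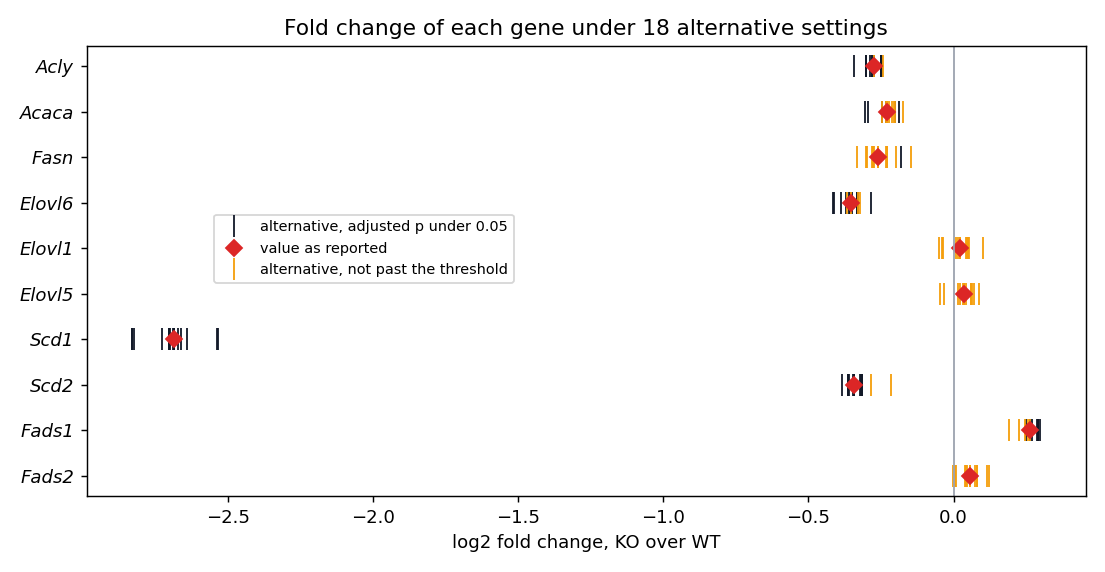
Log2 fold change of each gene (KO over WT) as reported (red diamonds) and under 18 alternative settings (black bars called, orange bars not called). Scd1 stays between -2.83 and -2.54 and called throughout, while Elovl1, Elovl5 and Fads2 straddle 0.

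Other enzymes of the same families were called in both directions. Of 21 listed, 13 were tested, of which 4 were called higher, 2 lower and 7 not (median log2 fold change 0.07). The counts of the list include Elovl3 and Scd4, each of which entered the test through 1 group only. Hacd2, a dehydratase of the elongation cycle, rose to 50.8 ± 1.68 CPM in KO, against 33.7 ± 1.71 CPM in WT (log2 fold change 0.58 ± 0.07, adjusted p = 0.000606). Hsd17b12, the ketoacyl reductase of that cycle, rose to 323 ± 7.08 CPM, against 230 ± 22.0 CPM in WT (adjusted p = 0.00274); it lies on chromosome 2. Other genes of the cycle, named after their values were seen, were not called: Tecr, the last reductase, had a log2 fold change of -0.22 ± 0.09, and the dehydratase genes Hacd1, Hacd3 and Hacd4 had -0.33 ± 0.11, 0.07 ± 0.08 and -0.04 ± 0.10. Elovl3, an elongase of saturated and monounsaturated chains, stood at 1.24 ± 0.0644 CPM in KO and 0.562 ± 0.0666 CPM in WT; its WT libraries were all under 1 CPM, so it was tested only because it was high in KO.

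Acacb, the second carboxylase gene, whose product acts at mitochondria to restrain fatty acid import, was named after its values were seen. It rose to 15.4 ± 1.86 CPM in KO, against 10.4 ± 1.09 CPM in WT (log2 fold change 0.54 ± 0.12, adjusted p = 0.0103). With Acaca lower, the Acaca to Acacb ratio per length was 9.30, 8.48 and 8.64 in KO and 13.8, 15.3 and 16.7 in WT.

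Genes that supply acetyl-CoA and NADPH also split, with 5 of 12 tested higher and 1 lower, beside 13.5% and 16.9% of all tested genes. The one that fell was Me1, malic enzyme, a cytosolic source of NADPH: 58.1, 57.6 and 55.5 CPM in KO replicates 1, 2 and 3, against 207, 228 and 219 CPM in the WT replicates (log2 fold change -1.92 ± 0.06, adjusted p = 6.72e-07). Pgd and Taldo1 of the pentose phosphate pathway rose to 411 ± 25.7 and 230 ± 15.3 CPM in KO, against 310 ± 21.6 and 176 ± 16.0 CPM in WT (adjusted p = 0.00549 and 0.0110). The call of Taldo1 was lost without KO replicate 1 (log2 fold change 0.38) and under quantile normalization. Acss2, which makes acetyl-CoA from acetate and lies on chromosome 2, rose to 16.8 ± 0.565 CPM, against 12.7 ± 0.219 CPM in WT (adjusted p = 0.00511). Under quantile normalization 3 genes of this list were called, 2 higher and 1 lower. G6pdx, the first enzyme of the pentose phosphate pathway, is listed at 0 in every library.

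Among regulators of lipid synthesis, 2 of 25 tested genes rose and 9 fell (median -0.09), beside 13.5% and 16.9% of all tested genes. Insig1, which holds SREBP in the endoplasmic reticulum and is itself an SREBP target, fell to 102 ± 1.83 CPM in KO, against 179 ± 6.81 CPM in WT (adjusted p = 4.77e-05). Usf1 and Usf2, factors that bind E-boxes of lipogenic promoters, fell with log2 fold changes of -0.41 ± 0.07 and -0.39 ± 0.06 (adjusted p = 0.00502 and 0.00287). Rxra, the partner of LXR, rose to 177 ± 12.4 CPM in KO, against 114 ± 9.65 CPM in WT (adjusted p = 0.00105). It lies on chromosome 2, where 58.3% of tested genes were called higher. The count changed with a library left out: 4 were called without KO replicate 1 or without KO replicate 3, and 6 without KO replicate 2 or without WT replicate 3. In these settings, in that order, 1973, 2364, 2194 and 2477 of all tested genes were called, against 3230 with all libraries.

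The SREBP genes, their escort Scap and the LXR receptor Nr1h3 were named after their values were seen. Srebf1, which encodes the SREBP form tied to fatty acid synthesis, had 66.8, 79.5 and 78.5 CPM in KO replicates 1, 2 and 3, against 106, 87.0 and 88.1 CPM in the WT replicates. It passed the threshold narrowly (-0.32 ± 0.10, adjusted p = 0.0486) and lost the call under 11 of 18 alternatives. Among these were leaving out any library but WT replicate 2, with -0.24 without KO replicate 1, -0.36 without KO replicate 2, KO replicate 3 or WT replicate 3, and -0.23 without WT replicate 1. Srebf2, the sterol-linked form, stood at 238 ± 17.1 CPM in KO and 289 ± 22.0 CPM in WT (-0.28 ± 0.08, adjusted p = 0.0323) and lost it under 6, among them leaving out KO replicate 1 (-0.22), KO replicate 3 (-0.30) or WT replicate 3 (-0.30). Scap stood at 68.3 ± 5.90 CPM in KO and 71.8 ± 7.75 CPM in WT and was not called. Nr1h3, on chromosome 2, stood at 13.0 ± 0.0471 CPM in KO and 10.6 ± 1.18 CPM in WT and was not called (0.29 ± 0.10, adjusted p = 0.0569). It was called higher under 7 of 18 alternatives, among them leaving out WT replicate 1 (0.35).

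Downstream, in acyl-CoA activation and glycerolipid synthesis, 2 of 20 tested genes rose and 5 fell (median -0.06). Over all tested genes, 13.5% rose and 16.9% fell by the same threshold. Lpcat2, a lysophospholipid acyltransferase of inflammatory cells, rose to 19.7 ± 1.32 CPM in KO, against 8.44 ± 0.170 CPM in WT (adjusted p = 3.51e-05). Lpcat3, which puts polyunsaturated chains into phospholipids and lies on chromosome 6, fell to 53.7 ± 3.96 CPM, against 73.6 ± 3.96 CPM in WT (adjusted p = 0.00367). Agpat3, an acyltransferase gene, and the acyl-CoA synthetase gene Acsl5 fell with log2 fold changes of -0.53 ± 0.08 and -0.34 ± 0.06 (adjusted p = 0.00151 and 0.00362).

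Cholesterol synthesis and uptake, which shares SREBP control, had 15 of 22 tested genes lower and 1 higher. Among all tested genes 16.9% were called lower and 13.5% higher. The median log2 fold change of the list was -0.38, beside -0.25 for the 10 fatty acid genes and -0.02 over all tested genes. These medians were not tested against each other. Cyp51, which demethylates lanosterol, fell to 174 ± 1.93 CPM in KO, against 258 ± 16.7 CPM in WT (adjusted p = 0.000577). Nsdhl, a later step, and Acat2, a thiolase that makes acetoacetyl-CoA, fell with log2 fold changes of -0.60 ± 0.06 and -0.53 ± 0.06 (adjusted p = 0.000279 and 0.000455). In the range over 18 alternatives, 12 to 20 genes of this list were called.

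Targets of LXR outside lipid synthesis were not uniform, with 2 of 6 tested higher and 3 lower, beside 13.5% and 16.9% of all tested genes. In this list 1 was called without KO replicate 1 or without KO replicate 2. Without WT replicate 3, 2 were called, and 3 without KO replicate 3 or without WT replicate 2. Mylip, a ligase that marks the LDL receptor for degradation, fell to 10.8 ± 1.22 CPM in KO, against 15.7 ± 2.01 CPM in WT (adjusted p = 0.0145), a call lost without KO replicate 2 (log2 fold change -0.42). Apoe stood at 3.53 ± 1.102 CPM in KO and 7.14 ± 2.29 CPM in WT (adjusted p = 0.0299), and Lpl, lipoprotein lipase, at 181 ± 9.39 CPM in KO and 148 ± 13.3 CPM in WT (adjusted p = 0.0305). Arl4c had a log2 fold change of 0.23 ± 0.06 (adjusted p = 0.0256). The call of Apoe was lost without KO replicate 1 (-1.004) or 2 (-0.68), that of Lpl without KO replicate 1 (0.29), KO replicate 3 (0.25) or WT replicate 3 (0.32), and that of Arl4c without any library but WT replicate 1 (0.22 to 0.25). The median of the list was -0.21.

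Fatty acid oxidation, the opposing pathway, had 2 of 19 tested genes higher and 2 lower (median -0.07). Of all tested genes 13.5% were called higher, 16.9% lower and 30.4% in either direction. Cpt1a, the carnitine transferase that admits fatty acids to mitochondria, rose to 54.2 ± 3.36 CPM in KO, against 33.7 ± 0.0829 CPM in WT (log2 fold change 0.68 ± 0.07, adjusted p = 0.000284). It was the one call of this list that held without KO replicate 1. Acadvl (-0.36 ± 0.08) and Acaa1a (-0.31 ± 0.08), enzymes of beta-oxidation, had adjusted p = 0.0108 and 0.0221 with all libraries. Without KO replicate 1, Acadvl (-0.35) and Acaa1a (-0.26) were not called. Without KO replicate 3, 2 genes of the list were called, and Acaa1a (-0.30) lost the call.

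**Figure D4:**
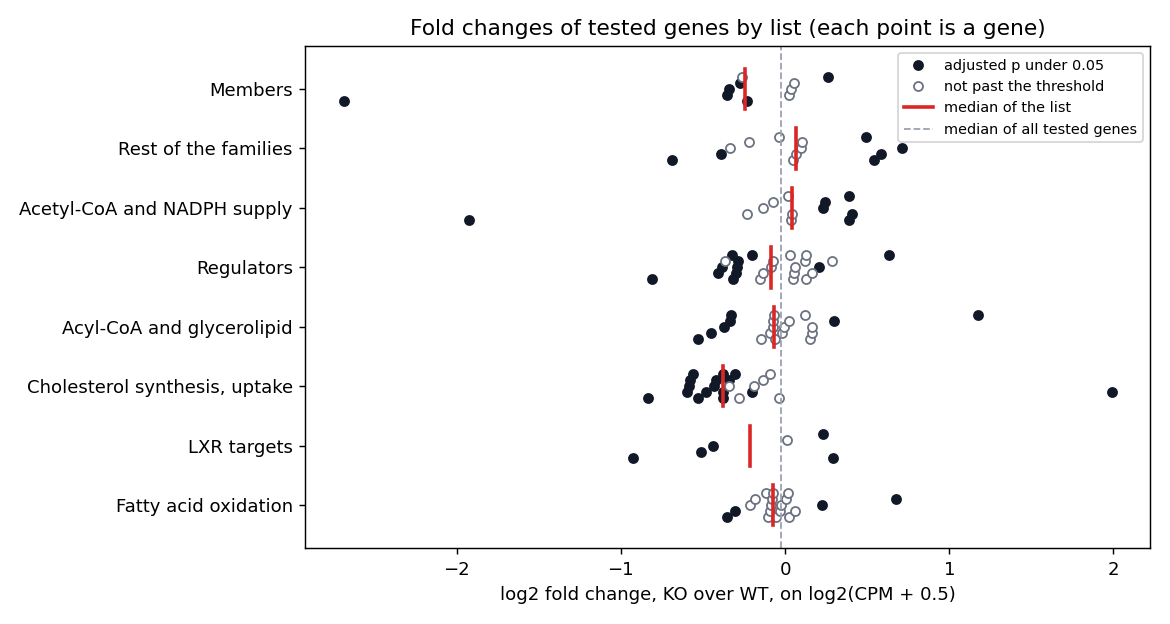
Log2 fold change (KO over WT) of each tested gene, a point each, by list; filled points passed the threshold, red bars are list medians and the dashed line is the median of all tested genes (-0.02). The members have a median of -0.25 with Scd1 far to the left, and the cholesterol list has a median of -0.38.

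The genes most like Scd1 over the 6 libraries, by the root mean square difference of centred log2(CPM + 0.5), were Ctsk (0.0402), Clec10a (0.0603), Ak4 (0.0937), Klhl30 (0.0974) and S100a11 (0.121). Ctsk, which encodes cathepsin K, stood at 54.97 ± 2.81 CPM in KO and 365 ± 4.62 CPM in WT. The genes most like Scd2 were Ahcyl2 (0.0256), Ier3 (0.0309), Gpr176 (0.0317), Nxpe3 (0.0319) and Focad (0.0338), with log2 fold changes of -0.37 to -0.31. These describe 6 libraries in 2 groups and mainly reflect a like difference between the groups.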

How the data were processed

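The authors deposited CPM, read counts per gene symbol scaled to the library total, for 3 KO and 3 WT libraries. Per the file headers, alignments were sorted and duplicates removed; per the submitters' processing notes, the tools were STAR 2.6.0a, SAMtools, Picard, FastQC and Trim Galore, with mm10. Which program counted the reads, with which gene models and whether by strand, no source used here gives, so reads of overlapping genes cannot be assigned by strand. All CPM were whole multiples of 1 read (100% of values, tolerance 0.01 of a read), which gave whole reads. A read is worth 0.0142 to 0.0198 CPM; counts cover counting error only.

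Of all symbols, those reaching 1 CPM in 3 or more libraries were fitted on log2(CPM + 0.5) with limma 3.58.1 (R 4.3.3; trend, no covariates), tested beforehand on simulated data. Whole reads were also tested with the edgeR 4.0.16 quasi-likelihood test, which called 3359 genes, and DESeq2 1.42.0, which called 3758; limma called 3230. The p-values measure the spread between plates. The members and lists were chosen with earlier results of these data known. Named genes are the 10 members, Apobec1, Rn45s, up to 4 called genes of each list by adjusted p, and the 5 genes most like Scd1 and Scd2; of a list without a call the rule takes its 2 most abundant genes, and the marker lists concerned, all with 0 tested genes, are given as sums instead. Exceptions are stated where they occur, and some genes that the rule takes are not reported here. Lengths, coordinates and shared windows come from GENCODE M21 (mm10), to which 24313 symbols matched and 535 did not; promoters come from RefSeq. Alternatives were other pseudocounts, filters, scalings and limma settings, a replicate block, both count tools and leaving out each library, and, chosen after the data were seen, removal of a length and GC trend.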

Additional observations from a re-analysis of the deposited data

How the results depend on the processing

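Over 18 alternatives the number of all called genes ran from 1973 to 4621, of the 10 members from 2 to 7, and of the other pathway genes from 32 to 70, against 3230, 6 and 55 as reported. Leaving out 1 library gave 1973 to 3761 genes, 2 to 6 members and 32 to 59 pathway genes, with 4 to 10 regulators, 1 to 5 LXR targets and 1 to 4 oxidation genes. With a replicate block there were 2009 genes, 2 members (Scd1 and Scd2), 35 pathway genes, 4 regulators, 4 glycerolipid genes, 2 LXR targets and 1 oxidation gene. Same-numbered libraries did not deviate together (correlations of -0.25, -0.64 and -0.17 across genes), and no library correlated best with its own number. The labels state no pairing. Deviations from the mean of only 3 libraries a group cannot decide whether the numbers pair them. Quantile normalization called 3 genes of acetyl-CoA and NADPH supply, and the length and GC correction 7 of oxidation. Apobec1 passed the threshold at -0.27 (quantile normalization), -0.22 (without Rn45s), -0.18 (DESeq2) and -0.20 (length and GC correction). It also passed without WT replicate 1 (-0.25), the lowest of the -0.25 to -0.15 with a library left out. Directions turned for genes near 0: under quantile normalization Fads2 (-0.0028), Elovl1 (-0.039) and Elovl5 (-0.033), and with a library left out Elovl1 (-0.050 to 0.10), Elovl5 (-0.047 to 0.088) and Scap (-0.13 to 0.016, above 0 without WT replicate 1). The causes were not tested. Of 6 called members and 46 other called named genes, all kept their sign in every alternative that held them, and 1 and 31 kept the call in each. With 3 libraries a group, Scd1 rests on 198 to 247 reads in each KO library; every other member had at least 2744 reads in each library.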

Other observations

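Within the macrophage markers, 3 were called higher by the limma test, 3 lower and 6 not, beside 13.5% higher and 16.9% lower among all tested genes. Lyz2, which encodes lysozyme, stood at 1238 ± 121 CPM in KO and 708 ± 49.0 CPM in WT, and Spi1, on chromosome 2, at 236 ± 12.9 CPM in KO and 181 ± 18.4 CPM in WT. Adgre1, which encodes F4/80, fell to 31.9 ± 2.38 CPM, against 45.4 ± 2.22 CPM in WT. Mrc1, the mannose receptor gene, also on chromosome 2, stood at 0.0353 ± 0.0344 CPM in KO and 1.57 ± 0.251 CPM in WT, and it entered the test only through the WT libraries. Among granulocyte markers S100a8 stood at 3.99 ± 0.761 CPM in KO and 0.944 ± 0.112 CPM in WT, while the other 4 were listed at 0 in every library, as are some genes that most cells use. S100a8 met the limit for testing through its KO libraries, since 1 of 3 WT libraries reached 1 CPM. Lymphocyte and epithelial markers summed to at most 0.257 CPM in any library.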
